A study of Mus musculus with 4 samples.

Results

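The chromosome starts are the stretches of mouse chromosomes 1 to 19 nearest the centromere: all array probes whose midpoint lies at or below 8 Mb in build mm9. They hold 5719 of the 170305 genomic probes on the array, of which 5704 were usable on all arrays, and 155741 probes lie in the rest of these chromosomes. The choice used position alone and no measured value. Chromosome 14 has no probe below the limit, since its first one spans 8526343 to 8526402, so 18 starts were described. They held between 193 usable probes on chromosome 3 and 450 on chromosome 19, the first beginning at 3000029 on chromosome 3. On chromosome 7 the probes stopped at 7252181.

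The study measured replication timing in MEFs (mouse embryonic fibroblasts), connective tissue cells grown from embryos, with 1 array of 2 colours in each of 4 groups. The oxygen level given is 3% for all 4 groups. Cells took up the nucleotide analogue BrdU for 1 hour and were sorted by DNA content into early and late S phase. DNA made in each fraction was put on one array, early in green and late in red. Timing is log2 of early over late signal relative to the autosomal probe median of each array, so a higher value means earlier replication. The knockout (KO) array held MEFs whose genotype is given as deletion of a floxed SUV4-20H1 allele, and the control array held MEFs given only as control. The induced and non-induced arrays held cells of an inducible suv4-20h mutant, and how induction was done is not stated in the labels. Every sample carries the same protocol text, which gives 4-hydroxytamoxifen (1 mM, 24 hours) as the agent that deletes the floxed allele in the MEF line, and the labels give that line 2 different numbers. Nothing in the labels says whether the second enzyme of the family was present in any of these cells. KO and control lay on 1 slide and induced and non-induced on another, so that between the pairs a difference of slide cannot be told apart from one of cells. Each group has a single array, so the spread between cultures is unknown and conditions could not be tested against each other.

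Mouse chromosomes carry their centromere at one end, and the numbering of each chromosome begins there, so the first mapped bases are the unique sequence closest to the centromere. The centromere is flanked by satellite repeats packed as constitutive heterochromatin, which the probes do not cover. SUV4-20H enzymes add methyl groups to a lysine in the tail of histone H4, and the trimethylated form is a known mark of that heterochromatin. Along the chromosome arms, replication timing is organised in large domains: gene-rich, open chromatin tends to replicate early, and gene-poor chromatin late.

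Taken over all starts, the share of probes above background was close to that of the rest of the autosomes, although single starts lay lower. In both channels, 93.4% of their probes exceeded background clearly by the scanner's flag on the KO array, 94.4% on control, 89.5% on induced and 95.2% on non-induced, against 93.1, 94.1, 89.1 and 94.9% in the rest. The lowest single start was chromosome 3 on the induced array, with 61.7%. For the 42 probes of the starts that were printed repeatedly, the median SD of the log2 ratio within an array was 0.16 on KO, 0.17 on control, 0.17 on induced and 0.12 on non-induced. Y chromosome probes were well above background for 107 of 122 on the KO array, against 50 on control, 41 on induced and 53 on non-induced. KO and control thus also differed in Y signal, and its part in the differences of the starts was not tested.

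Averaged over the 18 starts, timing was lower than over the rest of the same chromosomes on every array, but the starts ranged from among the earliest to among the latest 5 Mb segments of the genome. Mean timing of the starts was -0.30 on KO, -0.13 on control, -0.40 on induced and -0.21 on non-induced. Start minus rest of the chromosome averaged -0.21 ± 0.12 on KO, -0.16 ± 0.10 on control, -0.31 ± 0.15 on induced and -0.23 ± 0.10 on non-induced (SE over 18 starts). Of the 18 starts, 10, 11, 13 and 11 lay below the rest of their own chromosome on the same arrays. The spread among the starts was as wide as among all 487 segments of 5 Mb: the SD was 0.57 on KO, 0.46 on control, 0.69 on induced and 0.48 on non-induced over starts, against 0.57, 0.42, 0.70 and 0.49 over segments. The starts were thus about as varied in timing as segments elsewhere.

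The earliest starts were those of chromosomes 11 and 19, which ranked first and second on every array in one order or the other. Chromosome 19 had timing of 0.65 on KO, 0.78 on control, 0.93 on induced and 0.58 on non-induced. Chromosome 11 had 0.66 on KO, 0.71 on control, 0.90 on induced and 0.72 on non-induced. On chromosome 19, 22 of 23 windows of 200 kb were above 0 on all 4 arrays, and on chromosome 11 18 of 25. These starts, at 0.58 or more, lay above the next ones, which reached at most 0.26. Standard errors over the probes of a start were 0.03 to 0.07 throughout, but neighbouring probes are not independent.

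Next on induced and non-induced, though not on KO and control, was chromosome 17, with 0.03 on KO, 0.13 on control, 0.26 on induced and 0.23 on non-induced, and 14 of its 21 windows were above 0 on all arrays. A middle group had means near 0 made of both early and late stretches. Chromosome 2 had 0.12 on KO, 0.12 on control, -0.18 on induced and -0.03 on non-induced. Chromosome 5 had -0.13 on KO, 0.10 on control, -0.13 on induced and 0.14 on non-induced. In this group the mean hides the domain pattern: 11 of the 23 windows of chromosome 5 were above 0 and 11 below 0 on all 4 arrays.

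Chromosome 12 had timing of -0.20 on KO, -0.04 on control, -0.20 on induced and 0.02 on non-induced. Chromosome 15 had -0.02 on KO, 0.13 on control, 0.01 on induced and 0.11 on non-induced. Chromosome 16 had -0.12 on KO, 0.05 on control, -0.24 on induced and -0.12 on non-induced. It was the one start with no window of mixed sign, 9 of 22 being above 0 and 13 below 0 on all arrays. Chromosome 18 had 0.00 on KO, 0.13 on control, -0.03 on induced and 0.02 on non-induced. Chromosome 10 had -0.10 on KO, -0.17 on control, -0.27 on induced and -0.29 on non-induced, and chromosome 7 had -0.24, -0.29, -0.39 and -0.20 on the same arrays. Over all 18 starts, 12 of the 17 steps between starts of neighbouring rank were within 2 standard errors on KO, 11 on control, 14 on induced and 12 on non-induced. These standard errors are over probes, and neighbouring probes are not independent.

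The late starts were those of chromosomes 1, 3, 4, 6, 8 and 9, and among them chromosomes 1, 3, 4, 8 and 9 held no window above 0 on all arrays. Chromosome 4 was the latest start on control, induced and non-induced, with -0.85 on KO, -0.84 on control, -1.29 on induced and -0.94 on non-induced. Chromosome 3 was the latest on KO, with -1.27, against -0.52 on control, -1.02 on induced and -0.53 on non-induced. Chromosome 1 had -1.10 on KO, -0.54 on control, -1.21 on induced and -0.76 on non-induced. These means do not hold at every window, since chromosomes 1 and 3 began above 0 on control and chromosome 4 on KO. On control these first windows held few probes, with 0.02 over 7 probes on chromosome 1 and 0.21 over 5 on chromosome 3. Of all segments, 1.23% on the control array lay lower than the start of chromosome 4.

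Chromosome 9 had timing of -1.10 on KO, -0.70 on control, -1.20 on induced and -0.73 on non-induced. Chromosome 6 had -0.90 on KO, -0.53 on control, -1.09 on induced and -0.72 on non-induced. Chromosome 8 had -0.69 on KO, -0.68 on control, -0.90 on induced and -0.50 on non-induced. Chromosome 13 stood apart from all of these, since it was in the middle on 1 slide and late on the other: -0.13 on KO and -0.18 on control, but -1.10 on induced and -0.78 on non-induced.

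Most of the start sequence kept its side of 0 on all arrays. Of 411 windows of 200 kb in the starts, 125 (30.4%) were above 0 on all 4 arrays, 223 (54.3%) below 0 on all 4 and 63 (15.3%) mixed, against 35.4, 45.3 and 19.3% of all 11314 windows of these chromosomes. Chromosome 13 held 12 of the mixed windows and chromosome 10 held 9. Across the 18 starts, timing on induced and non-induced correlated with r = 0.98 and on KO and control with r = 0.93, where the 487 segments gave 0.99 and 0.89. Each pair of arrays shares a slide, and neighbouring probes are not independent, so these are descriptions only.

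The first timing domain, counted from the first window until a pair of windows in a row crossed to the other side of 0, was early on 8 starts on KO, 9 on control, 7 on induced and 7 on non-induced. It was early on all 4 arrays on 5 chromosomes and late on all 4 on 7. Its median length was 1.1 Mb on KO, 1.3 Mb on control, 2.2 Mb on induced and 1.9 Mb on non-induced. The shortest was 0.2 Mb on KO and control, a single window. On control, chromosomes 1 and 3 counted as early through such a window, at 0.02 over 7 probes and 0.21 over 5. The first domain thus usually ended well inside the start, reaching past 8 Mb on 2 chromosomes on KO, 3 on control, 6 on induced and 4 on non-induced. The start of chromosome 13 was late up to 12800000 on both induced and non-induced, whereas on both KO and control the late stretch ended at 3400000. That of chromosome 4 was late up to 10800000 on control, induced and non-induced, whereas the KO array began with an early stretch up to 3800000.

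Within the starts, timing did not change steadily with distance from the first mapped base. In bins of 500 kb, the mean over chromosomes in the bin nearest the centromere was -0.32 on KO, -0.24 on control, -0.50 on induced and -0.33 on non-induced. Between 6000001 and 6500000 it was -0.19 on KO, -0.00 on control, -0.39 on induced and -0.17 on non-induced, and between 7000001 and 7500000 it was -0.65, -0.46, -0.96 and -0.59. The lowest values of the starts thus lay away from the centromere, in the last 1.5 Mb below the limit. Beyond 6500000, mean timing was -0.58 on KO, -0.38 on control, -0.81 on induced and -0.51 on non-induced, against -0.21, -0.05, -0.26 and -0.11 up to that base. This division was chosen after the values by distance had been seen. The difference, far minus near, was -0.38 ± 0.18 on KO, -0.33 ± 0.13 on control, -0.54 ± 0.22 on induced and -0.40 ± 0.17 on non-induced (SE over 18 chromosomes), and the far stretch was lower on 14, 15, 13 and 11 chromosomes. Past the limit the means did not stay down: between 8500001 and 9000000 they were -0.10 on KO, -0.17 on control, -0.41 on induced and -0.27 on non-induced. Between 9500001 and 10000000 they were -0.60, -0.45, -1.04 and -0.70 on the same arrays, as low as in the starts. At the limit, the last probe inside, on chromosome 6 at 7998639 to 7998698, had timing of 0.25 on KO, 0.11 on control, -0.44 on induced and -0.28 on non-induced. The first probe outside, on chromosome 5 at 8001169 to 8001228, had -1.59, -1.06, -1.98 and -1.36 on the same arrays.

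The last 5 Mb of each chromosome, the stretch at the telomere that faces away from the centromere, was set beside the starts. Its mean timing over 19 chromosomes was 0.08 on KO, 0.12 on control, 0.05 on induced and 0.12 on non-induced. It lay below 0 on 7 chromosomes on KO, 6 on control, 7 on induced and 7 on non-induced, whereas of the 18 starts 13, 10, 14 and 11 were below 0. The SD over the ends was 0.70 on KO, 0.48 on control, 0.82 on induced and 0.56 on non-induced.

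KO cells were compared with control cells, which concerns how timing differs where the SUV4-20H1 allele is deleted. Starts were on average slightly later on the KO array, about as much as the rest of the genome, and the starts of chromosomes 3 and 1 stood out. KO minus control timing averaged -0.17 ± 0.05 (SE over 18 starts) with a median of -0.13, where the median segment of the genome was at -0.11 and the rest of the same chromosomes averaged -0.12. It was below 0 in 15 of 18 starts, as in 72.5% of all segments. Only 7 of the 18 starts lay below the rest of their own chromosome. The differences ranged from -0.75 on chromosome 3 to 0.07 on chromosome 10.

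A start, segment or window counted as later or earlier where its difference reached 3 standard errors over probes and 0.25 of the range from the 10th to the 90th percentile of windows on the second array of the comparison. For KO minus control the size needed was 0.45. By this rule 2 of 18 starts were later on KO and 0 earlier, where 13.8% of all segments were later and 0.616% earlier. Both called starts were among the late ones on control already. The share of starts called lies near that of all segments.

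Chromosome 3 had the lowest difference, -0.75 ± 0.04 (SE over 193 probes), with 21 of 487 segments lower. There 16 of 22 windows were called later and 0 earlier, and 21 of 22 were below 0. The channels moved apart: relative to the autosomal median, KO minus control was -0.49 in early signal and 0.22 in late signal. The mean of both log2 channels (total signal) differed by -0.13. The next 5 Mb segment of chromosome 3 had a smaller difference of -0.30. The first protein-coding genes of chromosome 3 in the RefSeq gene order are Hnf4g, a nuclear receptor of the gut, Zfhx4, a zinc finger homeobox factor, and Pex2, which serves the making of peroxisomes. That order is of another build, GRCm38, so no gene was placed on a window.

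Chromosome 1 had -0.55 ± 0.04 (SE over 260 probes), with 42 segments lower. All 22 windows were below 0, and 11 were called later. Here both channels were weaker on KO, by -0.96 in early and -0.45 in late signal, so total signal differed by -0.70, with 15 segments lower, while in the rest of chromosome 1 it differed by 0.20. What the lower total signal contributes to the lower timing was not tested. The next segment of chromosome 1, in contrast, was higher on KO by 0.13. The genes nearest the centromere on this chromosome are, in the same order, Xkr4, Rp1, a gene of photoreceptor cells, and Sox17, a transcription factor of endoderm.

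The profiles along both starts show where the arrays part. On chromosome 1 the highest window lay from 6200001 to 6400000 on KO, at -0.20, and on control, at 0.65, and from 6000001 to 6200000 on induced, at 0.56, and on non-induced, at 0.79. The lowest windows were at -1.76 on KO, -1.17 on control, -2.37 on induced and -1.36 on non-induced, so KO alone had no window above 0. On chromosome 3 the windows ranged from -2.07 to -0.55 on KO, -0.81 to 0.21 on control, -2.14 to -0.05 on induced and -1.09 to -0.11 on non-induced. There KO was lowest from 3800001 to 4000000, whereas induced was lowest from 7800001 to 8000000, at the other side of the start.

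Chromosomes 9 and 6 came next, with differences of -0.39 ± 0.03 and -0.37 ± 0.04, below the size of the rule as whole starts, although 12 of 25 and 13 of 23 of their windows were called later. On chromosome 6, 2 windows were called earlier, by 0.67 from 5200001 to 5400000 and by 1.23 from 5400001 to 5600000 (9 probes). On chromosome 9 the lower timing did not stop at the limit, as the next segment differed by -0.46. Chromosome 5 had -0.22, chromosome 16 -0.17, chromosome 12 -0.16, chromosome 15 -0.15, chromosome 18 -0.13, chromosome 19 -0.13 and chromosome 17 -0.11. Chromosomes 11, 2, 4 and 8 were between -0.05 and -0.01, and chromosomes 7, 13 and 10 between 0.05 and 0.07. A mean near 0 did not always mean equal profiles: on chromosome 4, 3 windows were called later and 4 earlier, and on chromosome 13, 3 were later and 6 earlier.

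Over all starts, 85 of 411 windows (20.7%) were called later on KO and 31 (7.54%) earlier, where 21.9% of all windows of these chromosomes were later and 8.17% earlier. The starts therefore held no larger share of called windows than the genome did. Chromosome 3 held 16 of the later ones, chromosome 6 held 13, chromosome 9 held 12 and chromosome 1 held 11, and chromosomes 7, 10 and 19 held none.

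Among later windows with at least 10 probes, the lowest difference was on chromosome 3 from 3600001 to 3800000, with timing of -1.62 on KO and -0.12 on control; they differed by -1.50 ± 0.20 (SE over 11 probes). Next came chromosome 1 from 3400001 to 3600000, where timing was -1.44 on KO and -0.18 on control, a difference of -1.26 ± 0.15. On chromosome 6 from 4000001 to 4200000, it was -1.29 on KO and -0.16 on control, a difference of -1.13 ± 0.12. All of these lie within about 1 Mb of the first mapped base, and on control all were only slightly late. On induced and non-induced, timing was -1.13 and -0.49 in the window of chromosome 3. It was -1.71 and -1.06 in that of chromosome 1, and -0.55 and 0.16 in that of chromosome 6. The chromosome 1 window was thus late on all arrays but control, and non-induced was also called later than control there, by -0.87. Chromosome 1 held a further pair, from 6600001 to 6800000 with -0.89 ± 0.11 and from 6200001 to 6400000 with -0.86 ± 0.11. The last of these crossed 0, with -0.20 on KO and 0.65 on control, and belongs to the one early peak of that start.

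The largest earlier difference lay in the first window of chromosome 4 with enough probes, from 3400001 to 3600000, where timing was 0.81 on KO and -0.68 on control, a difference of 1.49 ± 0.10 (SE over 12 probes). The window next to it, from 3600001 to 3800000, had 0.59 on KO and -0.28 on control, a difference of 0.87 ± 0.17. Timing there was -0.10 and -0.04 on induced, and -0.25 and -0.21 on non-induced, so that only the KO array was early. The first protein-coding genes of chromosome 4 in RefSeq order are Vmn1r2 and Vmn1r3, which encode vomeronasal receptors, followed by Tmem68, Tgs1 and Lyn, a tyrosine kinase of blood cells. Chromosome 10 had an earlier window from 4600001 to 4800000, with 0.67 on KO and -0.15 on control. Chromosome 8 had one from 3200001 to 3400000, with 0.28 on KO and -0.49 on control. A further window of chromosome 4, from 6200001 to 6400000, had -0.14 on KO and -0.85 on control. In all, 25 windows of the starts were above 0 on KO and below 0 on control, and 16 were below 0 on KO and above 0 on control. No share over all windows is given for these counts, so they do not set the starts apart. Windows of mixed sign over the 4 arrays were 15.3% in the starts, against 19.3% of all windows.

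These KO results leaned on how arrays were brought to a common scale. Centring arrays on the median window in place of the median probe shifted the median segment by more than 0.1, to 0.08 from the -0.11 given above, and put the mean of the starts at 0.01, with 41 windows later and 54 earlier. These were 9.98% and 13.1% of the start windows, where 12.4% and 15.4% of all windows were called. Chromosome 3 was no longer called with quantile normalization (-0.45) or once the linear trend of the difference on timing was removed (-0.34), and chromosome 1 was lost under these and 4 further settings, at -0.39 to -0.15.

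Induced mutant cells were compared with non-induced ones, which concerns how timing differs upon induction. Late starts had lower values on the induced array and the earliest starts higher ones, with no start past the size of the rule. Much of this shrank or turned with the scale. With arrays brought to an equal spread chromosome 11 was at -0.03, chromosome 4 at -0.05 and chromosome 13 at -0.07. There chromosomes 1, 3, 8 and 9 stayed at -0.27 to -0.19, and chromosome 19 stayed higher at 0.14. With quantile normalization chromosome 4 was at 0.04, chromosome 6 at -0.04 and chromosome 13 at -0.00. With the linear trend of the difference on timing removed, chromosomes 1, 3, 4, 6, 8, 9 and 13 lay between -0.16 and 0.08. Chromosome 11 was then at 0.06 and chromosome 19 at 0.23. Induced minus non-induced timing averaged -0.19 ± 0.05 (SE over 18 starts) with a median of -0.20, where the median segment was at -0.13. It was below 0 in 14 of 18 starts, as in 66.5% of segments, and below the rest of the same chromosome in 12. The size needed for a call was 0.52, and 0 of 18 starts were later and 0 earlier, where 6.16% of segments were later and 0.0% earlier.

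Chromosome 3 again had the lowest value, -0.49 ± 0.05, followed by chromosome 9 with -0.47 ± 0.04 and chromosome 1 with -0.46 ± 0.04. Chromosome 8 had -0.41, chromosome 6 -0.37, chromosome 4 -0.35 and chromosome 13 -0.32. These 7 were also the latest starts on the non-induced array. Their order changed with the background: with normexp chromosome 3 had -0.05 and chromosome 6 was lowest at -0.23, and without the dim probes of any array chromosomes 1, 6, 9 and 3 had -0.40, -0.38, -0.36 and -0.35. On the induced array 61.7% of the probes of chromosome 3, 75.2% of chromosome 9 and 81.9% of chromosome 8 were well above background, and chromosome 3 had 83.9% on non-induced. Total signal differed less here than between KO and control: its SD over segments was 0.07, against 0.30. On chromosome 9 all 25 windows were below 0, with -0.30 in early and 0.12 in late signal. The middle starts followed, with -0.27 on chromosome 5, -0.22 on chromosome 12, -0.19 on chromosome 7, -0.15 on chromosome 2, -0.12 on chromosome 16, -0.09 on chromosome 15 and -0.05 on chromosome 18. Chromosomes 10 and 17 were at 0.03 each.

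Chromosome 19 had the highest difference of all 487 segments in this comparison, 0.34 ± 0.02 (SE over 450 probes), and chromosome 11 had 0.18 ± 0.02, with 455 segments lower. On chromosome 19, 21 of 23 windows were higher on induced, whereas the next segment of the chromosome differed by -0.03. Among the 107 segments that were early on both arrays, above 0.4, the differences ranged from -0.05 to 0.34 with a median of 0.13. The channel differences were unequal, with 0.04 in early and -0.35 in late signal. Total signal differed by -0.16, with 35 segments lower, against -0.03 in the rest of the chromosome. With KO and control, which lay at 0.65 and 0.78, the difference of this start was -0.13. Its highest window, from 4600001 to 4800000, was the same on all arrays, with 1.16 on KO, 1.14 on control, 1.33 on induced and 1.07 on non-induced. Under the normalizations and choices of probes tried, chromosome 19 had at most 2 segments above it, with differences of 0.14 to 0.54, and after centring on the median window it was called earlier.

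Chromosome 19 is also the chromosome of the targeted gene: Kmt5b, the current symbol of Suv4-20h1, is the 9th protein-coding gene from the centromere in the RefSeq order. It follows Ighmbp2, a helicase, Mrpl21, a mitochondrial ribosomal protein, and Cpt1a, an enzyme that takes part in the import of fatty acids into mitochondria. Because gene positions are of another build, the window that holds Kmt5b was not identified, and the deletion itself was not looked for in the probes.

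Of 411 windows in the starts, 51 (12.4%) were called later on induced and 4 (0.973%) earlier, where 11.4% of all windows were later and 0.477% earlier. Chromosomes 9 and 12 held 8 later windows each, and chromosome 5 held 7. The share of later windows lies near that of the genome. Of the 4 earlier windows, 3 lay on chromosome 19, from 7200001 to 7400000 (1.15 on induced, 0.55 on non-induced), from 4000001 to 4200000 (1.04 and 0.46) and from 5600001 to 5800000 (0.64 and 0.08), with differences of 0.60 ± 0.10, 0.58 ± 0.17 and 0.56 ± 0.11. In each of them non-induced was also the lowest of the 4 arrays, since KO had 0.62, 0.53 and 0.54 and control 0.77, 0.88 and 0.81.

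The lowest differences among later windows were on chromosome 13 from 7400001 to 7600000, with timing of -1.44 on induced and -0.42 on non-induced (-1.02 ± 0.30, SE over 12 probes). On chromosome 5 from 7000001 to 7200000, timing was -1.42 on induced and -0.51 on non-induced (-0.92 ± 0.21). Chromosome 12 differed by -0.81 ± 0.23 from 6400001 to 6600000, and chromosome 3 by -0.81 ± 0.25 from 5400001 to 5600000. On chromosome 9 the window from 4400001 to 4600000 differed by -0.80 ± 0.19. In all 5 the non-induced array was already below 0. Across the starts, 10 windows were below 0 on induced and above 0 on non-induced, and 3 the other way. Here too no share over all windows is given, so these counts describe the starts alone.

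The number of later windows depended on the spread of the arrays, since the range from the 10th to the 90th percentile was 2.70 on induced and 2.08 on non-induced. With arrays brought to an equal spread, 8 windows of the starts (1.95%) were later and 0 earlier. Of all windows, 1.82% were later and 0.0707% earlier. Centred on the median window, 13 (3.16%) were later and 26 (6.33%) earlier, where 3.25% and 6.13% of all windows were.

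The early and late channels both took part in the differences. The early difference was the larger in size in 10 starts and the late one in 8 for KO minus control, and in 9 and 9 for induced minus non-induced. For KO minus control, early signal was below 0 in 12 of 18 starts with a mean of -0.14, and late signal in 8 with a mean of -0.02. For induced minus non-induced, early signal was below 0 in 15 starts with a mean of -0.11, and late signal in 7 with a mean of 0.02. For KO minus control, chromosome 6 had -0.08 in early and 0.24 in late signal, chromosome 9 had -0.49 and -0.15, chromosome 5 had -0.42 and -0.25, and chromosome 19 had -0.01 and 0.07. Chromosomes 3 and 6 were thus lower in the early and higher in the late channel, while chromosomes 1, 5 and 9 were lower in both. For induced minus non-induced, chromosome 3 had -0.36 in early and 0.07 in late signal, chromosome 1 had -0.19 and 0.21, chromosome 6 had -0.11 and 0.21, and chromosome 11 had 0.01 and -0.23. These late starts thus had less early and more late signal on induced, and the earliest starts, 11 and 19, had less late signal. Over all 18 starts, KO minus control ranged from -0.96 to 0.26 in early and -0.45 to 0.27 in late signal, and induced minus non-induced from -0.36 to 0.06 in early and -0.35 to 0.21 in late signal. Median early signal in the starts was 143 on KO, 155 on control, 141 on induced and 197 on non-induced, against 286, 244, 407 and 462 in the late channel, so the early channel was the dimmer one on all arrays.

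KO minus control and induced minus non-induced share no array, and their values can be set side by side. Over the 18 starts they correlated with r = 0.50, and over the 487 segments with r = 0.67, as a description of arrays that differ in spread in the same sense. Chromosomes 3, 1, 9 and 6 were the lowest 4 starts for KO and had -0.49, -0.46, -0.47 and -0.37 in the induced comparison. Chromosomes 4 and 8 differed between the comparisons, with -0.01 each for KO and -0.35 and -0.41 for induced. Later in both were 29 windows, which are 34.1% of the 85 of KO and 56.9% of the 51 of induced, where over all windows the shared ones were 29.2 and 56.1% of each list. These lay on chromosomes 9 and 12 with 6 each, chromosome 6 with 5, chromosomes 3 and 5 with 3 each, and chromosomes 1, 4 and 13 with 2 each.

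Among the 6 windows of chromosome 12 later in both is the one from 6400001 to 6600000. Its timing was -0.83 on KO and -0.01 on control, and -1.62 on induced and -0.81 on non-induced. The first genes of this chromosome in RefSeq order include Rab10, Kif3c, the de novo DNA methyltransferase gene Dnmt3a, the hormone precursor gene Pomc and Cenpo, which encodes a centromere protein.

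The third pair of arrays, non-induced and control, differs in slide as well as in cells, carries no stated deletion or induction, and shares the control array with the first comparison. Starts were close to each other on average, with one exception on chromosome 13. Non-induced minus control averaged -0.08 ± 0.04 (SE over 18 starts), with 12 of 18 below 0, as in 58.3% of segments. The rule, again with a size of 0.45, called 1 start later and 0 earlier, where 0.616% of segments were later and 1.03% earlier.

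Among the others, chromosome 1 had the lowest difference, -0.21, followed by chromosome 19 with -0.20, chromosome 6 with -0.19, chromosome 16 with -0.17 and chromosome 2 with -0.16. Chromosomes 10, 18 and 4 were at -0.13, -0.11 and -0.10, and chromosomes 9, 15, 3 and 11 between -0.03 and 0.01. Higher on non-induced were chromosomes 5 and 12 by 0.05 and 0.06, chromosomes 7 and 17 by 0.09 and 0.10, and chromosome 8 by 0.18. None of these reached the size of the rule.

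The start called later was chromosome 13, at -0.60 ± 0.04 (SE over 267 probes), the lowest of all 487 segments. It had timing of -0.78 on non-induced and -1.10 on induced, against -0.13 on KO and -0.18 on control, and 22 of its 24 windows were lower on non-induced than on control. Relative to the autosomal medians, the early channel differed by -0.74 and the late channel by -0.06. Total signal differed by -0.40, with 111 of 487 segments lower, against -0.03 in the rest of the chromosome. What total signal contributes to the channel values was not tested. The next segment differed by -0.15. It was the lowest segment under every normalization and choice of probes tried, at -0.63 to -0.42, and it was not called with the limit moved to 13 Mb, where it had -0.34. Slide and cells cannot be told apart in this difference.

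Windows of this start ranged from -1.25 to 1.22 on KO and -0.94 to 0.94 on control, and from -2.14 to 0.20 on induced and -1.61 to 0.22 on non-induced. Its 13 called windows ran from 3400001 to 6600000. From 3600001 to 3800000 on chromosome 13, timing was 0.06 on non-induced and -0.18 on induced, against 0.99 on KO and 0.94 on control. From 3800001 to 4000000 it was -0.22 on non-induced and -0.33 on induced, against 0.88 on KO and 0.75 on control. From 4000001 to 4200000 it was -0.97 on non-induced and -1.05 on induced, against 0.06 on KO and 0.05 on control. An early peak of KO and control cells in the first of these windows was thus late or near 0 in the inducible cells, with differences of -1.02 to -0.87 for non-induced minus control, while KO minus control in these windows was 0.00 to 0.13. The first protein-coding genes of chromosome 13 in RefSeq order are Gdi2, a regulator of Rab proteins in membrane traffic, Tasor2, a paralogue of a subunit of the HUSH silencing complex, and Asb13.

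In the same comparison, 48 windows of the starts (11.7%) were later and 20 (4.87%) earlier, where 10.4% of all windows were later and 8.63% earlier. Chromosome 13 held 13 of the later ones. Chromosome 12 held 6 later and 6 earlier windows, among them 5800001 to 6000000 at -0.98 ± 0.18 and 4200001 to 4400000 at 0.78 ± 0.11. The 48 later windows stand beside 51 in the induced comparison, where the size needed was larger, 0.52 against 0.45. No deletion or induction is stated for these cells, but the non-induced ones are labelled as a mutant. The counts are therefore not those of a pair without a stated difference. Total signal differed more here than in either of the others, with an SD of 0.43 over segments. In the start of chromosome 3 it differed by -0.93, although timing differed by -0.01.

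The ends of the chromosomes give the same rule another set of segments. Of 19 ends, 2 were later and 1 earlier on KO, 3 later and 0 earlier on induced, and 0 later and 0 earlier on non-induced relative to control. Among all segments, 13.8% were later and 0.616% earlier on KO, 6.16 and 0.0% on induced, and 0.616 and 1.03% on non-induced. The counts at either end of the chromosomes are too small to set the starts apart from the ends.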

How the data were processed

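Timing was measured on 4 Agilent arrays of 2 channels, with 1 array per group. The intensity used for either channel is, per the file headers, the scanner software's processed signal, with background subtracted and a linear dye factor applied. The headers name Agilent Feature Extraction 11.5.1.1; version 9.1 is named in the submitters' processing notes. The deposited ratio, on a log10 scale, has late over early signal. In the starts the authors' deposited value table held the scanner's log10 ratios exactly, in 5887 of 5887 spots per array. The other deposited columns used are quality flags of 0 or 1. Coordinates are those of the files, on mm9.

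From these, log2 of early over late intensity was computed. Control spots and spots with outlier flags were left out (9 to 15 in the starts per array), repeated spots were averaged per probe, and the autosomal probe median of an array was subtracted, with no loess. Segments of 5 Mb, the starts being the first, needed 50 probes; windows of 200 kb needed 5. Windows with at least 10 probes, up to 5 per direction and comparison, were named. Standard errors over probes cover variation along the genome only; the number of arrays limits precision. No paired fit was possible. A total of 19 starts had been planned for, and 18 hold probes. The members, rules and lists were chosen with earlier results of these data known. On simulated data the rule for calls was tested too. The division at 6500000, means over windows and the gene neighbours were chosen after seeing the data. Alternatives covered background correction (normexp, offset 50), scaling, centring, quantile normalization, dim probes, the deposited table, odd and even probes, window size, limits and thresholds. Probe sequences and GC content were not analysed here. Software was R 4.3.3 with limma 3.58.1, and Python 3.11.15 with pandas 2.3.3 and numpy 2.4.6.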

Additional observations from a re-analysis of the deposited data

How the results depend on the processing

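No call between conditions could be tested with 1 array per group, and all counts rest on a size rule. No value below was tested for its cause. Start minus rest of the chromosome stayed below 0 on all arrays under all settings run. With the limit at 6 Mb it was -0.15 on induced and -0.11 on non-induced, and without 1 chromosome at a time -0.26 to -0.16 on KO, -0.22 to -0.12 on control, -0.38 to -0.25 on induced and -0.27 to -0.18 on non-induced. Leaving out chromosomes put the mean over starts at -0.18 to -0.14 for KO minus control and -0.22 to -0.17 for induced minus non-induced.

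For KO minus control, the mean over starts was -0.082 with normexp, -0.0031 with quantile normalization, 0.013 centred on the median window and 0.031 after removing the linear trend of the difference on timing, so that its sign turned in the last 2 of these. Later windows of the starts numbered 44 with arrays scaled to the same spread, 54 with normexp, 25 with quantile normalization, 41 centred on the median window (54 earlier), 27 with the trend removed (47 earlier), 42 over odd probes (18 earlier) and 41 over even probes (19 earlier). Earlier were 13.1 against 15.4% centred, 11.4 against 12.5% with the trend removed, 6.12 against 8.46% over odd probes and 6.44 against 8.37% over even probes. With windows of 500 kb, 8 were earlier, 4.49 against 6.27% of all windows. Later starts numbered 1 after scaling, with normexp, with centring on the median window and with the limit at 13 Mb, 0 with quantile normalization or without the trend, and 4 at a size of 0.15.

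For induced minus non-induced, the mean over starts was -0.10 after scaling, -0.075 with normexp, -0.019 with quantile normalization, 0.015 centred on the median window and 0.00639 with the trend removed. Its sign likewise turned in the last 2. Later and earlier windows of the starts numbered 8 and 0 after scaling, 17 and 2 with normexp, 3 and 0 with quantile normalization, 13 and 26 centred on the median window, 3 and 1 with the trend removed, 15 and 1 over odd probes, and 31 and 2 at 4 standard errors. Later were 1.95% of start windows against 1.82% of all windows after scaling, and 4.14 against 2.30% with normexp. They were 0.730 against 1.18% with quantile normalization, 3.16 against 3.25% centred and 0.730 against 0.672% with the trend removed. Odd probes gave 5.10 against 6.50%, and 4 standard errors 7.54 against 6.72%. There were 26 later windows over even probes, 8.81 against 6.85% of all windows. Earlier windows numbered 1 over probes well above background, 4 with the limit at 13 Mb, 9 with windows of 100 kb and 1 with windows of 500 kb. Earlier shares were 0.276 against 0.122%, 0.476 against 0.476%, 1.58 against 0.982% and 0.562 against 0.0845% in that order. They were 0.487 against 0.398% with normexp, 6.33 against 6.13% centred and 0.243 against 0.654% with the trend removed. Odd probes gave 0.340 against 0.861%, and 4 standard errors 0.487 against 0.309%. Later starts numbered 1 with the limit at 6 Mb, 1 over even probes and 7 at a size of 0.15, and 1 start, chromosome 19, was earlier at that size and when centred on the median window. For non-induced minus control, even probes gave 29 later windows (9.83%, against 7.25% of all windows) and the limit at 13 Mb gave 0 later starts.

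Over all settings, 276 summary values stayed close to those given and 56 did not. Close means within 1.5 times the given count (or share, where the number of windows changed), or within 1 standard error of the given mean. The 276 include the means with 1 chromosome left out, which this rule could not count as changed, so they do not measure stability. Of the differences of single starts, 625 stayed as they were, called or not called, 14 gained a call and 9 lost one. Only chromosomes 1 and 3 for KO minus control and chromosome 13 for non-induced minus control had a call to lose. Most of the 625 were thus without a call before and after. The sign of differences without a call was not counted. No paired analysis was possible because each group has 1 array.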
